A study of Mus musculus with 18 samples.

Results

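Peaks of cohesin and of its loader were examined at both ends of the stretch of the mouse immunoglobulin heavy chain locus (Igh) that V(D)J recombination scans first: the 3' end of the locus, and the DH segments with the intergenic control region IGCR1. The members were all peaks of the 14 deposited lists that overlap chr12:114430001-114493000 (63 kb) or chr12:114672001-114815000 (143 kb) on mm9. Within these windows peaks were taken by position alone, and 204 of 1009859 peaks on the autosomes and X met the rule, 10 to 18 in each list. The windows themselves were chosen with earlier results of these data known. Igh lies on the minus strand of chromosome 12, so its 3' end has the lower coordinates.

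RAD21 and NIPBL were mapped by ChIP-seq in a v-Abl transformed pro-B cell line, in which the v-Abl kinase holds untreated cells at an early B lineage stage. All 6 groups shared a genotype of JH-del, dCas9 expressing, Emu-Bcl2 and RAG2 deficient, and a treatment of 3 uM STI-571 for 4 days. The RAD21 block (n = 2) and NIPBL block (n = 2) groups also expressed Sg1-sgRNA, a guide RNA that leads dCas9, a Cas9 that binds without cutting, to its target. They were set against the RAD21 control (n = 2) and NIPBL control (n = 2) groups, which had no such guide. In a further experiment RAD21 was mapped in Ig2b-del/del cells (n = 3) and in their wild type (n = 3). The sequence of the guide and the ends of the Ig2b and JH deletions were not given in the labels. Sg1 and Ig2b were read as names from the constant region part of Igh, which lies between the windows. The cells lacked RAG2 and so could not rearrange Igh.

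RAD21 is a subunit of the cohesin ring, which extrudes chromatin loops until it is halted, most often at CTCF bound to its motif facing the incoming ring. NIPBL loads cohesin and drives extrusion, and is known mostly from active promoters and enhancers. At Igh, the 3' regulatory region (3'RR) is a group of enhancers downstream of the constant region genes, and the 3'CBEs are a cluster of CTCF-binding elements beyond it that forms the downstream border of the locus. IGCR1 lies between the DH and VH segments, holds a divergent pair of CTCF-binding elements, and keeps recombination of DH segments apart from the VH segments.

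The lists held 44729 to 123391 peaks and covered 11.6 to 34.4 Mb. RAD21 control replicate 2 had the largest coverage (34.4 Mb), and RAD21 control replicate 1 had 15.9 Mb, so values that move by much without replicate 2 are also given without it. Both replicate 1 lists of the RAD21 dCas9 experiment share a style of peak names that both replicate 2 lists lack, and within-replicate differences are given below. Of 10 pro-B marker genes, 9 had a peak within 5 kb of their start in all 14 lists, against 1 of 5 T cell markers (Lck) and 0 of 5 myeloid markers. A peak is a position of binding and not a level of expression. No read depth came with the lists, so the length and rank of called peaks were compared, not read density.

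Peaks recurred at 17 sites, 11 in the 3' window and 6 in the DH to VH window, numbered 1 to 17 from the 3' end. A recurrent site is a stretch covered by peaks of at least 3 of the 14 lists, with stretches under 200 bp apart joined, and the whole genome had 90604 made the same way (17 here and 90587 elsewhere). The sites held 176 of the 204 peaks. A peak in all 10 RAD21 lists was found at 9 of the 17 sites (52.9%), against 28.5% of the sites elsewhere. A peak in all 4 NIPBL lists was found at 3 of 17 (17.6%), against 25.8% elsewhere, and 2 of 17 (11.8%) had a peak in all 14 lists, against 4.86% elsewhere. Sites 2 to 7 stood within 9.41 kb, and site 1 lay 10029 bp further toward the 3' side. No annotated gene overlapped sites 1 to 11, whose nearest gene was a U6 snRNA gene (114452360 to 114452463, plus strand).

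**Figure D1:**
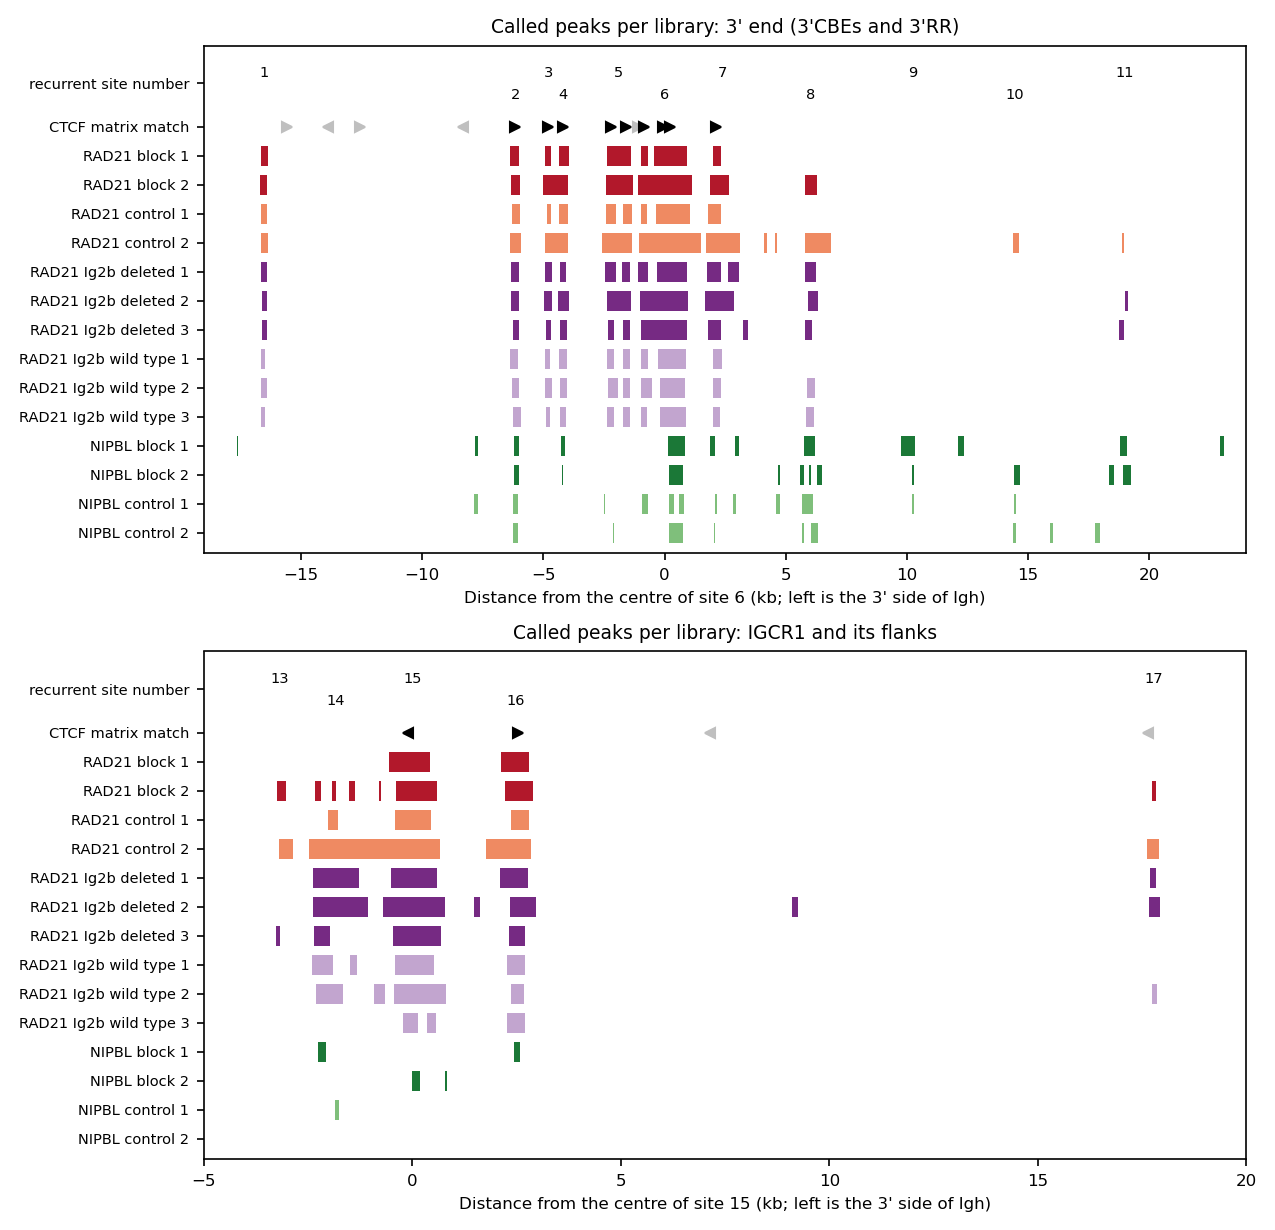
Called peaks in each of the 14 libraries (rows) by distance in kb from the centre of site 6 (upper panel) and of site 15 (lower panel); numbers mark the recurrent sites and arrowheads the CTCF matrix matches, pointing right for the plus strand, black where all 10 RAD21 lists cover the match and grey where they do not. Sites 1 to 7, 15 and 16 have RAD21 peaks in every RAD21 row, while NIPBL rows are filled mainly at sites 2, 6 and 8; the panels leave out the outer parts of both windows, where site 12 and scattered peaks lie.

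The DNA under the constant RAD21 sites was then read. A CTCF matrix of 20 positions, trained on 14340 sites of 100 to 500 bp with a peak in all 10 RAD21 lists outside chromosome 12, had a match (a log2 odds score of at least 13.7) in 80.5% of those sites and in 5.00% of windows 10 kb away. Both strands were searched. The windows held 22 matches, and 11 of them lay in 8 recurrent sites, namely sites 2 to 7, 15 and 16. Windows of the same lengths elsewhere held a match in 4.48 to 23.3% of cases for these 8 sites. They are shown since they carry the orientation of the anchors, each with 15 flanking bases on both sides, 5' to 3' on the strand of the match, from NCBIM37 (mm9), with the 20 matched bases in capitals.

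Site 2 (chr12:114454311-114454360, plus strand): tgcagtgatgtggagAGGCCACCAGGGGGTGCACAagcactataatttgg
Site 3 (chr12:114455655-114455704, plus strand): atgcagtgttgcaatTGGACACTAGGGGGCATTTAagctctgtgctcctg
Site 4 (chr12:114456279-114456328, plus strand): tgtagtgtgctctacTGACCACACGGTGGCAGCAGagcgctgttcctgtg
Site 5, left match (chr12:114458246-114458295, plus strand): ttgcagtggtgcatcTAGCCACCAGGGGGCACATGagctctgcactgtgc
Site 5, right match (chr12:114458879-114458928, plus strand): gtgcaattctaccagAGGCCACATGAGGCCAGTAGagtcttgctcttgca
Site 6, left match (chr12:114459601-114459650, plus strand): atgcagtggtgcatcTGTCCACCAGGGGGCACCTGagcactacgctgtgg
Site 6, middle match (chr12:114460409-114460458, plus strand): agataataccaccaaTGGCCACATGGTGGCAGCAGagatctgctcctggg
Site 6, right match (chr12:114460674-114460723, plus strand): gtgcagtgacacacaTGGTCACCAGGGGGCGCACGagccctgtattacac
Site 7 (chr12:114462589-114462638, plus strand): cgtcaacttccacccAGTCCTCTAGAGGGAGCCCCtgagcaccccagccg
Site 15 (chr12:114723461-114723510, minus strand): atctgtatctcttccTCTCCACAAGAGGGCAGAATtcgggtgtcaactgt
Site 16 (chr12:114726081-114726130, plus strand): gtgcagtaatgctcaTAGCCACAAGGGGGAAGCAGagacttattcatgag

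All 9 matches in sites of the 3' window lay on the plus strand, pointing into the locus. In IGCR1 the match of site 15 lay on the minus strand, facing the 3' end, and that of site 16 lay on the plus strand, facing the VH segments. Their centres were 2.62 kb apart, 3.08 and 5.70 kb from the DH segment Ighd1-1, the DH segment nearest to the pair. Each of the 11 matches was covered by peaks of all 10 RAD21 lists. NIPBL peaks covered the matches of site 2 and the right match of site 6 in all 4 lists. They covered 4 of the other matches in 1 list each (site 4, left match of site 6, site 7 and site 16) and 5 in no list, which were the matches of sites 3, 5 and 15 and the middle match of site 6.

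Of the 11 matches in no site, 9 were covered by no list, although their scores (13.8 to 22.7) spanned much of the range of the matches in sites (14.8 to 22.9). An example, chosen after its values were seen, lies 3' of site 2 and scored 22.7.

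Match in no site (chr12:114446573-114446622, minus strand): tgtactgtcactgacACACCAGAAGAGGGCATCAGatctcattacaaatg

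In the 200 bp around these 11 matches, 27.8 to 100% of the 32-base words occurred more than once in the genome, against 0 to 10.1% around the 11 matches in sites. Reads from repeated sequence may be lost in mapping, and its part in the missing peaks was not tested. Site 1 held no match, and its best score was 12.5, under the threshold. A match is a description of letters and was not itself shown to bind CTCF.

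Site 1 (chr12:114443826-114444100, 275 bp) had RAD21 peaks and no NIPBL peak. Peaks covered 275 and 247 bp in RAD21 block libraries, 273 and 275 bp in RAD21 control libraries, 255, 223 and 231 bp in Ig2b-del/del libraries and 163, 256 and 177 bp in Ig2b wild type libraries, and 0 bp in the 4 NIPBL libraries. RAD21 and NIPBL did not overlap, while block and control libraries did, as did deleted and wild type libraries. Its fold ranked between the 57.7th and 92.6th percentile of its own RAD21 lists, with tied folds placed at the middle of their ranks.

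Site 2 (chr12:114454130-114454544, 415 bp) had a peak in every list. RAD21 peaks covered 350 and 385 bp in block, 344 and 415 bp in control, 331, 332 and 249 bp in Ig2b-del/del and 332, 256 and 324 bp in wild type libraries. NIPBL peaks covered 205 and 227 bp in block and 183 and 200 bp in control libraries. Each RAD21 library had more of the site covered than any NIPBL library, and the NIPBL block values lay just above the NIPBL control values (log2 difference 0.12, SE 0.12, limma adjusted p 0.692).

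Site 3 (chr12:114455548-114455863, 316 bp) was the other constant RAD21 site with no NIPBL peak. RAD21 peaks covered 227 and 316 bp in block, 173 and 315 bp in control, 269, 299 and 226 bp in Ig2b-del/del and 232, 301 and 166 bp in wild type libraries. The groups overlapped, and the percentile ran from 30.4 in RAD21 control replicate 1 to 94.5 in RAD21 control replicate 2. In RAD21 block replicate 2 and RAD21 control replicate 2, 1 peak spanned sites 3 and 4, so the fold there is that of both.

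Site 4 (chr12:114456073-114456517, 445 bp) had RAD21 coverage of 376 and 429 bp in block, 359 and 445 bp in control, 259, 445 and 255 bp in Ig2b-del/del and 336, 260 and 248 bp in wild type libraries. NIPBL peaks covered 134 and 51 bp in block and 0 and 0 bp in control libraries. RAD21 values lay above all NIPBL values, and NIPBL was called there in block libraries only.

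Site 5 (chr12:114458034-114459127, 1094 bp) held some of the highest ranks of the 3' end. RAD21 peaks covered 1002 and 1052 bp in block, 785 and 1094 bp in control, 803, 957 and 528 bp in Ig2b-del/del and 579, 709 and 569 bp in wild type libraries. NIPBL peaks covered 0 and 0 bp in block and 7 and 51 bp in control libraries, and no NIPBL peak reached either CTCF match. In RAD21 control replicate 1 the site had fold 14.7 and ranked 61 of 58837 peaks (percentile 99.9), and over the 10 RAD21 lists the percentile ran from 93.4 to 99.9. It was the highest ranked member site in 6 of the 10 RAD21 lists.

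Site 6 (chr12:114459437-114461537, 2101 bp), at the border between the 3'CBEs and the 3'RR, was the longest site. RAD21 peaks covered 1674 and 2101 bp in block, 1663 and 2101 bp in control, 1595, 1975 and 1904 bp in Ig2b-del/del and 1484, 1502 and 1336 bp in wild type libraries. NIPBL peaks covered 670 and 590 bp in block and 675 and 573 bp in control libraries. The 3 deleted libraries lay above the 3 wild type libraries, and all RAD21 values lay above all NIPBL values. It was the site with the highest median percentile for both proteins, 98.7 in RAD21 lists and 85.2 in NIPBL lists.

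**Figure D2:**
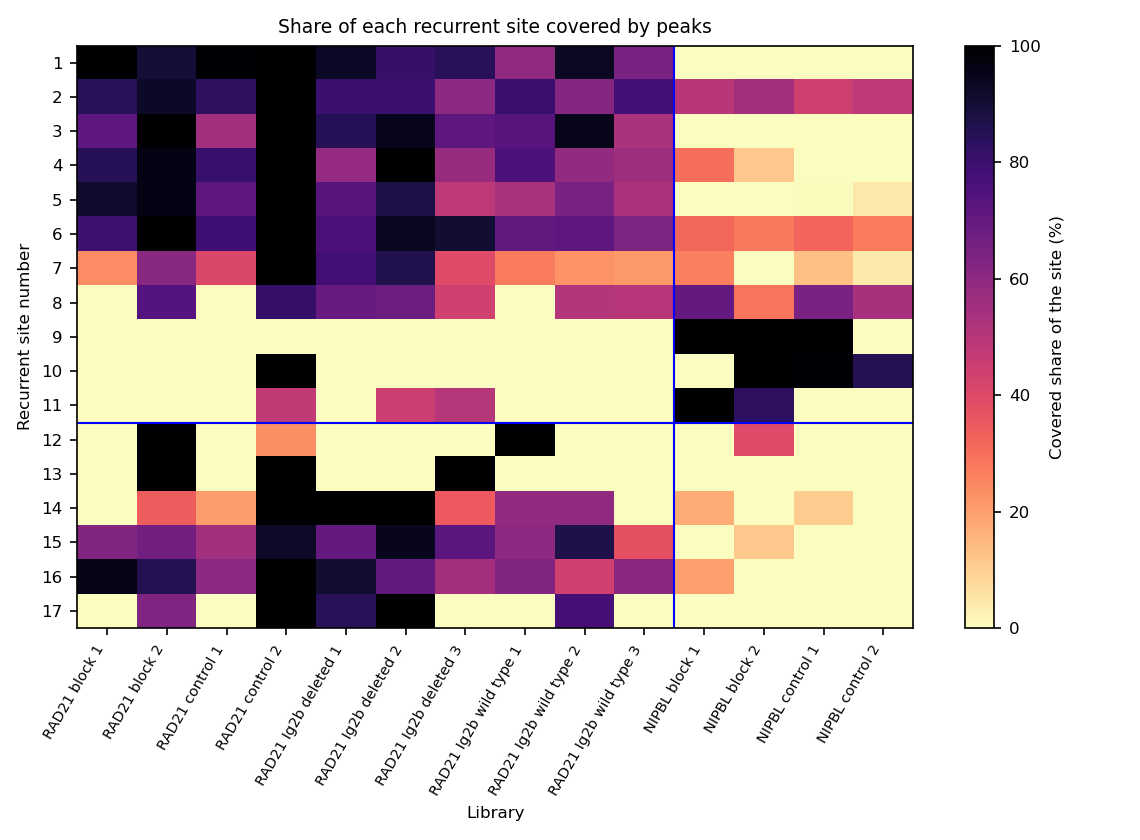
Share of each recurrent site (rows) covered by peaks of each library (columns), in percent; the blue lines part the 3' window from the DH to VH window and RAD21 from NIPBL libraries. Sites 1 to 7, 15 and 16 are filled in all 10 RAD21 columns, site 9 is filled in NIPBL columns alone, and the NIPBL columns are nearly empty below the horizontal line.

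In the 3'RR site 7 had a peak in all 10 RAD21 lists, and sites 8 to 11 in fewer. Site 7 (chr12:114462242-114463543, 1302 bp) had RAD21 coverage of 311 and 791 bp in block, 533 and 1302 bp in control, 1016, 1119 and 514 bp in Ig2b-del/del and 359, 299 and 279 bp in wild type libraries. NIPBL peaks covered 348 and 0 bp in block and 171 and 51 bp in control libraries. The deleted libraries lay above the wild type libraries without overlap, whereas RAD21 and NIPBL overlapped.

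Site 8 (chr12:114466174-114466834, 661 bp) had a peak in all 4 NIPBL lists and in 7 of the 10 RAD21 lists. RAD21 peaks covered 0 and 487 bp in block, 0 and 536 bp in control, 458, 447 and 288 bp in Ig2b-del/del and 0, 335 and 329 bp in wild type libraries. NIPBL peaks covered 464 and 189 bp in block and 425 and 353 bp in control libraries. All groups overlapped, and within the RAD21 dCas9 experiment both replicate 1 lists had no peak and both replicate 2 lists had one. The median percentile was 59.2 over the 7 RAD21 lists with a peak and 74.4 over the 4 NIPBL lists.

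Sites 9, 10 and 11 were short, at 51, 95 and 211 bp. Site 9 (chr12:114470709-114470759) had a peak in 3 NIPBL lists and no RAD21 list, and site 10 (chr12:114474904-114474998) in 3 NIPBL lists and 1 RAD21 list, RAD21 control replicate 2. At site 11 (chr12:114479355-114479565) NIPBL peaks covered 211 and 175 bp in block libraries and 0 and 0 bp in control libraries. RAD21 peaks covered 0 and 0 bp of it in block, 0 and 100 bp in control, 0, 95 and 106 bp in Ig2b-del/del and 0, 0 and 0 bp in wild type libraries. Thus NIPBL block and control libraries did not overlap at site 11, and RAD21 block and control libraries did.

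Recurrent peaks were nearly absent from the DH segments, but 49.5% of the 32-base words there occurred more than once in the genome. The part of repeated sequence in the missing peaks was not tested. Site 12 (chr12:114685747-114685809), 616 bp from the DH segment Ighd3-2, had a peak in 3 RAD21 lists and 1 NIPBL list. Site 13 (chr12:114720385-114720404, 20 bp), just inside the IGCR1 segment used for coverage, overlapped Ighd1-1 and had a peak in 3 RAD21 lists, at percentiles of 10.9 to 12.9.

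Past site 13, IGCR1 held 3 neighbouring sites, numbered 14 to 16. Site 14 (chr12:114721203-114722297, 1095 bp), 800 bp from Ighd1-1, was variable. RAD21 peaks covered 0 and 374 bp in block, 226 and 1095 bp in control, 1094, 1095 and 382 bp in Ig2b-del/del and 644, 650 and 0 bp in wild type libraries. NIPBL peaks covered 189 and 0 bp in block and 114 and 0 bp in control libraries. All groups overlapped there.

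Site 15 (chr12:114722792-114724377, 1586 bp) was covered over 993 and 1048 bp in RAD21 block, 866 and 1463 bp in RAD21 control, 1114, 1495 and 1146 bp in Ig2b-del/del and 946, 1378 and 596 bp in wild type libraries. NIPBL peaks covered 0 and 183 bp in block and 0 and 0 bp in control libraries. In RAD21 control replicate 2, 1 peak of 3149 bp spanned sites 14 and 15. RAD21 values lay above all NIPBL values and the RAD21 groups overlapped.

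Site 16 (chr12:114725713-114726423, 711 bp), 1333 bp from Adam6b, a gene needed for male fertility in mice, had RAD21 coverage of 679 and 608 bp in block, 425 and 711 bp in control, 644, 501 and 385 bp in Ig2b-del/del and 443, 309 and 430 bp in wild type libraries. NIPBL peaks covered 142 and 0 bp in block and 0 and 0 bp in control libraries. Again RAD21 values lay above all NIPBL values with overlap between the RAD21 groups. The fold ranked at percentiles of 89.1 to 99.5 in the RAD21 lists, and the NIPBL peak of block replicate 1 at a percentile of 10.5. On the VH side, site 17 (chr12:114741277-114741446, 170 bp) had a peak in 5 RAD21 lists and no NIPBL list.

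**Figure D3:**
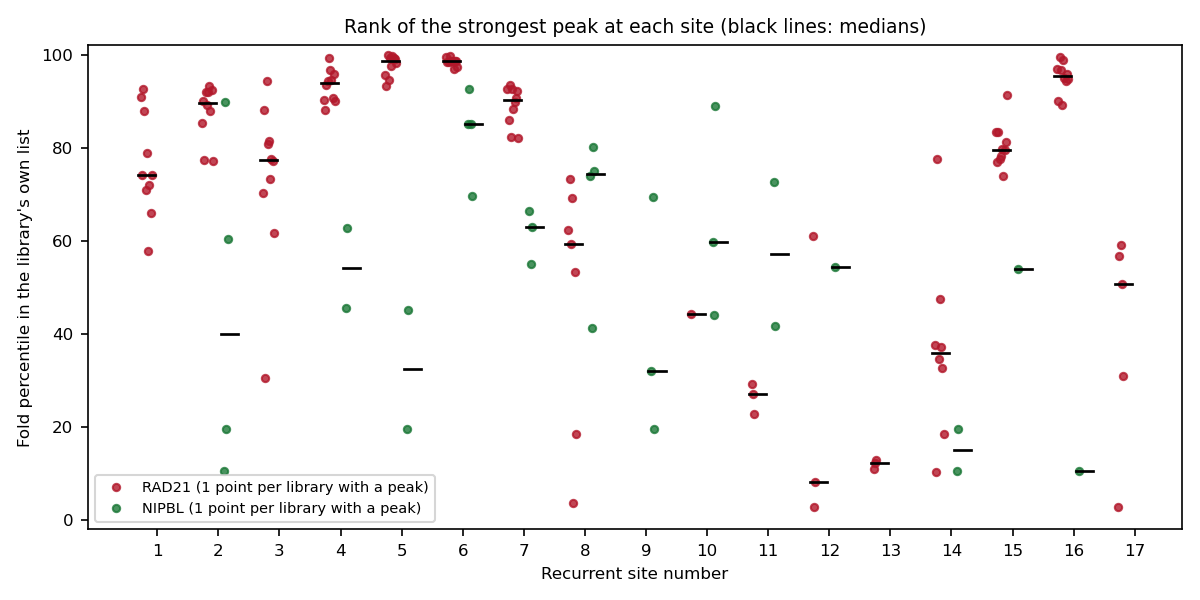
Fold percentile, within the library's own list, of the strongest peak at each recurrent site, with RAD21 (red) left of NIPBL (green), 1 point per library with a peak and black lines at the medians. RAD21 medians are above 70 at sites 1 to 7, 15 and 16 and below 60 at the other sites with RAD21 peaks, and the NIPBL median is highest at site 6 (85.2).

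The median percentile over RAD21 lists ordered the constant sites as site 6 (98.7), site 5 (98.6), site 16 (95.4), site 4 (94.0), site 7 (90.3), site 2 (89.6), site 15 (79.6), site 3 (77.4) and site 1 (74.1). Neighbours in this order overlapped in their ranges over libraries. In NIPBL lists the order was site 6 (85.2), site 8 (74.4), site 7 (63.0), site 10 (59.7), site 11 (57.1), site 4 (54.2), site 2 (39.9), site 5 (32.3), site 9 (32.1) and site 14 (15.0) among sites with a peak in at least 2 lists. Here too the ranges of neighbours overlapped or met, so the order is not resolved. The range was 10.5 to 89.8 at site 2, 44.1 to 89.0 at site 10 and 41.3 to 80.2 at site 8. The strongest member peak of each library ranked between 61 and 1217 in RAD21 lists and between 9168 and 14001 in NIPBL lists. Over all member peaks of a library, the median percentile was 68.3 to 90.6 in RAD21 lists and 44.1 to 54.0 in NIPBL lists, without overlap.

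RAD21 was compared with NIPBL in the dCas9 experiment (4 libraries each), on log2 of covered bp plus 100, with limma. The fit took in all 67893 sites of the genome whose mean coverage reached 50 bp. Across the genome 74.1% of sites were called at an adjusted p under 0.05, 53.2% with RAD21 higher and 20.9% with RAD21 lower. Of the 17 sites 12 could be tested and 9 were called, all with RAD21 higher: sites 1 to 7, 15 and 16. The median log2 difference of the 12 was 1.84, against 1.15 over all sites tested. Since most sites of the genome are called, the count is read against that background. The sites were built from the same peaks, of 10 RAD21 and 4 NIPBL lists, which favours sites high in RAD21. Sites 1 and 3, with no NIPBL peak, were defined and passed the filter through RAD21 peaks alone. Sites 4, 5, 15 and 16 had NIPBL peaks in 1 or 2 lists, below the 3 that define a site. These calls partly restate how the sites were found and are no independent evidence.

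The log2 difference was largest at site 5, where peaks covered 983 ± 137 bp in RAD21 and 14.5 ± 24.6 bp in NIPBL libraries (SD, n = 4 each; log2 3.25, SE 0.17, limma adjusted p 4.91e-06). Site 15 followed, with 1093 ± 258 bp in RAD21 and 45.8 ± 91.5 bp in NIPBL libraries (log2 3.18, SE 0.39, limma adjusted p 0.000369), and site 16, with 606 ± 128 bp in RAD21 and 35.5 ± 71.0 bp in NIPBL libraries (log2 2.48, SE 0.31, limma adjusted p 0.000422). The smallest called difference was at site 2, 374 ± 33.1 bp in RAD21 and 204 ± 18.1 bp in NIPBL libraries (log2 0.64, SE 0.08, limma adjusted p 0.000393). It was not called with quantile normalization (log2 0.16, limma adjusted p 0.422) or with lists matched in length (log2 1.01, limma adjusted p 0.0501). The other called sites had log2 differences of 1.44 at site 6, 1.82 at site 3, 1.87 at sites 4 and 7 and 1.88 at site 1. All 9 had RAD21 higher within both replicate numbers. Covered bp cannot exceed the length of a site, so the largest difference a site can show grows with its length. Sites 1 and 3 (275 and 316 bp), with no NIPBL peak, could reach less than sites 5, 15 and 16 (1094, 1586 and 711 bp). The order of the differences was not adjusted for length.

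Site 7 was the least certain call. Its log2 difference was 0.55 within replicate 1 and 3.19 within replicate 2 (limma adjusted p 0.0288), and the call was lost without RAD21 block replicate 2, RAD21 control replicate 1, RAD21 control replicate 2, NIPBL block replicate 2, NIPBL control replicate 1 or NIPBL control replicate 2 (log2 1.51 to 2.03, limma adjusted p 0.0551 to 0.0867). Sites 8 (log2 −0.84), 11 (−0.52) and 14 (1.23) were not called (limma adjusted p 0.203 to 0.357). Site 14 was called with sites of at least 2 lists (log2 2.94, limma adjusted p 0.00172) and with all 10 RAD21 libraries (log2 1.62, limma adjusted p 0.0481), and was at 0.68 without RAD21 control replicate 2. The 10 libraries take in those of the Ig2b experiment, whose peaks were called differently. Site 11 was called with NIPBL higher under quantile normalization (log2 −1.02, limma adjusted p 0.0228). At site 8 the difference was −2.44 within replicate 1 and 0.76 within replicate 2. Without RAD21 control replicate 2, sites 1 to 6, 15 and 16 were called and site 7 was not.

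By presence alone, in every library of one protein and none of the other, 2 of 17 sites (1 and 3) were RAD21 sites and none was a NIPBL site. Across the genome 37.6% of 90084 sites were called by this rule, 27.5% as RAD21 sites, so the members' share was below the background. When peaks had to cover at least 50% of a site, sites 1, 3, 4, 5, 6, 15 and 16 were RAD21 sites.

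**Figure D4:**
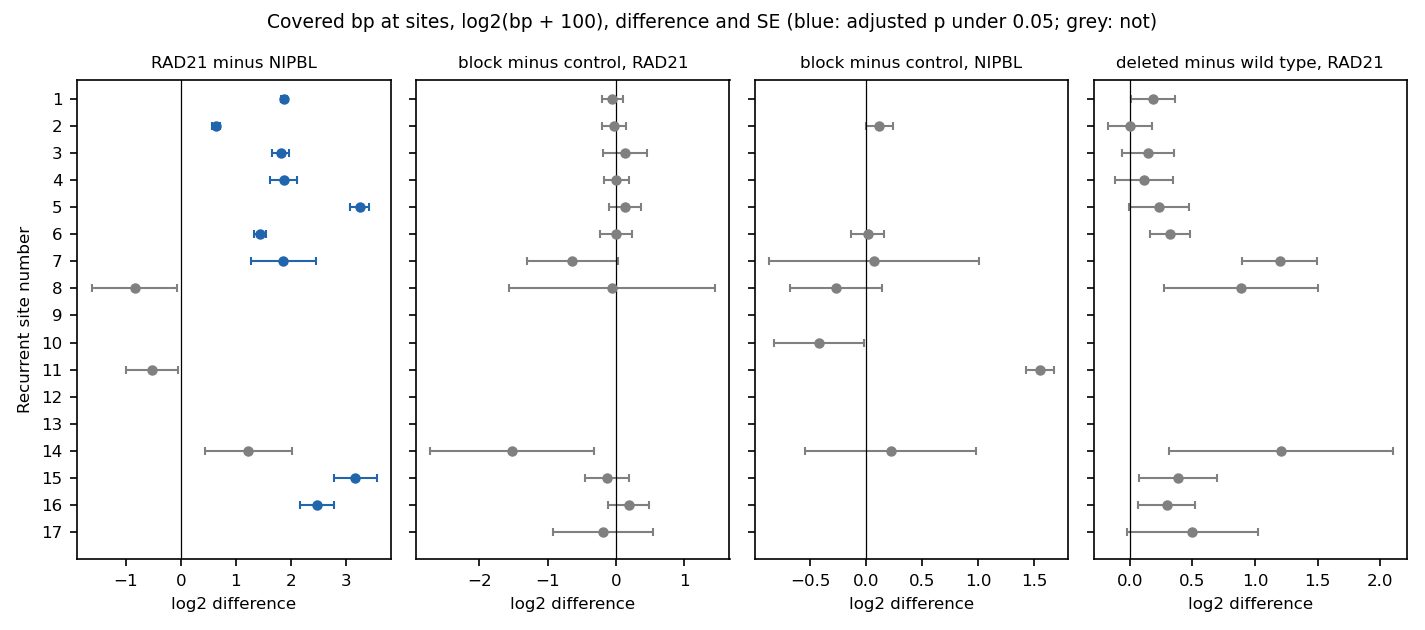
Difference in log2(covered bp + 100) with its SE at each recurrent site that could be tested, in 4 comparisons (panels), blue where the limma adjusted p was under 0.05 and grey where it was not. Sites 1 to 7, 15 and 16 are blue in the RAD21 minus NIPBL panel (log2 0.64 to 3.25), and no site is blue in the other panels.

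The dCas9 block, directed by Sg1-sgRNA, was then compared with its control. For RAD21 none of 12 sites tested was called by limma, with a background of 0%: none of 62948 sites of the genome was called, 534 had an unadjusted p under 0.05, and 0 of the 12 members did. The log2 differences of the members ran from −1.52 at site 14 to 0.19 at site 16, with a median of −0.04 against 0.05 over all sites. At site 14 the difference was −1.70 within replicate 1 and −1.33 within replicate 2 (SE 1.20, limma adjusted p 1), and −0.58 without RAD21 control replicate 2. At site 7 it was −0.62 within replicate 1 and −0.65 within replicate 2 (pooled log2 −0.64, SE 0.67, limma adjusted p 1), and −0.06 without RAD21 control replicate 2. These SEs leave out replicate number, although same-numbered RAD21 block and control libraries deviated alike (correlation 0.738). With replicate number in the fit, both sites had an unadjusted limma p under 0.05, as did 1127 sites of the genome. Neither site was called (limma adjusted p 0.793 for both). By presence 0 of the 16 sites with a RAD21 peak in these libraries were gained or lost, with a background of 1.13% in either direction and 0.853% gained. Coverage of IGCR1 as a whole was 16.7 and 23.2% in RAD21 block libraries, against 15.2 and 45.7% in RAD21 control libraries, which overlapped. The difference was 1.55 points within replicate 1 and −22.55 points within replicate 2. Without RAD21 control replicate 2 it was 4.78 points with block higher. That value sets both block libraries against control replicate 1 alone, so it carries the difference by replicate number.

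For NIPBL none of 7 sites tested was called by limma between block and control, with a background of 0%: none of 34719 sites was called, 3454 had an unadjusted p under 0.05, and 1 of the 7 members did. That member was site 11 (211 and 175 bp in block, 0 and 0 bp in control libraries; log2 1.55 and higher in both block libraries, SE 0.13, limma adjusted p 0.0850). The difference was 1.64 within replicate 1 and 1.46 within replicate 2. Among alternatives that kept all 4 libraries, it was called only with sites of at least 2 lists. With 1 NIPBL library left out, the log2 difference at site 11 was 1.46 to 1.64. Such a fit leaves 1 library in a group, and both control libraries had 0 bp, so it cannot decide the call. Site 11 passed the filter through the block libraries alone. By presence sites 4 and 11 were gained and site 5 was lost with the block, 3 of the 13 sites with a NIPBL peak, and the background was 4.91% in either direction and 4.05% gained. The NIPBL peaks of sites 4 and 5 were weak: at site 4 the fold was 3.71 and 3.00 in block libraries, and at site 5 it was 2.74 and 2.91 in control libraries. At site 11 the fold was 4.35 and 2.72 in block replicates 1 and 2 (percentiles of 72.6 and 41.6). With −log10 q of at least 3, presence called site 6 as gained, and no longer sites 4, 5 and 11.

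With deletion of Ig2b, RAD21 coverage at the members showed no difference from wild type that passed the test. Of 12 sites tested 0 were called by limma and 1 had an unadjusted p under 0.05, and the background was 0.834% (405 of 48555 sites), 0.676% with deleted higher. The median log2 difference was 0.31 over the members and 0.20 over all sites. Site 7 had the smallest p, with coverage of 1016, 1119 and 514 bp in deleted and 359, 299 and 279 bp in wild type libraries (log2 1.20, SE 0.30, limma adjusted p 0.264). Without Ig2b-del/del replicate 3 it was called (log2 1.50, limma adjusted p 0.0183), and over the 15 alternatives the limma adjusted p ran from 0.0183 to 0.629. Site 6 also separated the groups (log2 0.32, SE 0.16, limma adjusted p 0.581). By presence 0 of the 15 sites with a peak in these libraries were gained or lost, with a background of 1.75%.

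The windows were also divided into 5 segments whose ends are approximate: 3'CBEs (chr12:114430001-114460000), 3'RR (chr12:114460001-114493000), DH (chr12:114672001-114720000), IGCR1 (chr12:114720001-114730000) and IGCR1 to VH (chr12:114730001-114815000). RAD21 peaks covered 25.2% ± 14.1 of IGCR1 and NIPBL peaks 1.68% ± 1.43 (SD, n = 4 each), and the groups did not overlap. RAD21 peaks covered 9.73% ± 2.11 of the 3'CBEs and NIPBL peaks 2.31% ± 0.855, again without overlap. An exact permutation test (two-sided) gave p 0.0286 for both segments, which is the lowest value 4 libraries against 4 can reach, and an adjusted p of 0.0714 over the 5 segments. With all 10 RAD21 libraries the exact permutation adjusted p was 0.00500 for both (22.4 points higher in IGCR1 and 5.96 points in the 3'CBEs). These take in the Ig2b experiment, which had no NIPBL libraries. Its lists were called differently, with duplicates removed and no control library named. That p therefore mixes protein with experiment and peak calling. The difference in IGCR1 was 13.7 points within replicate 1 and 33.3 points within replicate 2, and 16.7 points without RAD21 control replicate 2.

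In the 3'RR the proteins overlapped, with 8.71% ± 4.54 for RAD21 and 5.76% ± 1.95 for NIPBL (exact permutation p 0.229, adjusted 0.381). The border set between the 3'CBEs and the 3'RR cuts through site 6, and site 7 lies in the 3'RR. Both sites hold plus strand CTCF matches. In RAD21 block replicate 1 and RAD21 control replicate 1, all RAD21 peaks of the 3'RR were those of sites 6 and 7. The difference was 2.95 points, −0.997 points within replicate 1 and 6.90 points within replicate 2, and 0.833 to 4.17 points with 1 library left out. It was 0.833 points without RAD21 control replicate 2, whose coverage was 15.1%. With segment ends moved out by 3 kb it was 6.80 points (exact permutation adjusted p 0.0357). That wider stretch takes in site 5 and all of site 6, so the value is not one of the 3'RR alone. DH and IGCR1 to VH were covered by at most 0.317% and 0.327% in any library of the dCas9 experiment. In these segments 49.5 and 43.7% of 32-base words occurred more than once in the genome. The share was 27.3% in the 3'CBEs, 24.8% in the 3'RR and 34.6% in IGCR1. The part of repeated sequence in the low coverage was not tested.

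Between Ig2b-del/del and wild type, RAD21 peaks covered 8.24, 10.1 and 7.98% of the 3'RR in deleted libraries, against 4.62, 5.36 and 5.11% in wild type libraries. The groups did not overlap. This segment takes in site 7 and much of site 6, the sites at which deleted and wild type libraries did not overlap. The exact permutation test gave p 0.1, the lowest that 3 libraries against 3 can reach, and an adjusted p of 0.5. The deleted libraries covered 11.9 to 25.1 Mb of the genome and the wild type libraries 11.6 to 15.2 Mb. Divided by the library's covered share of the genome, 3'RR coverage was 10.6 to 17.7 times that share in deleted libraries, against 8.56 to 11.7 times in wild type libraries, and the groups overlapped (exact permutation p 0.2, adjusted 0.7). Between NIPBL block and control, peaks covered 8.52 and 5.74% of the 3'RR in block libraries, against 4.40 and 4.36% in control libraries, and 3.31 and 2.28% of IGCR1 in block libraries, against 1.14 and 0% in control libraries. Block and control did not overlap in either segment on this scale. Divided by the covered share of the genome, 3'RR coverage was 11.1 and 5.09 times that share in block libraries, against 5.16 and 5.32 times in control libraries, which overlapped. For the undivided coverage the exact permutation test gave p 0.333 in both segments, the lowest that 2 libraries against 2 can reach, and an adjusted p of 0.833.

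**Figure D5:**
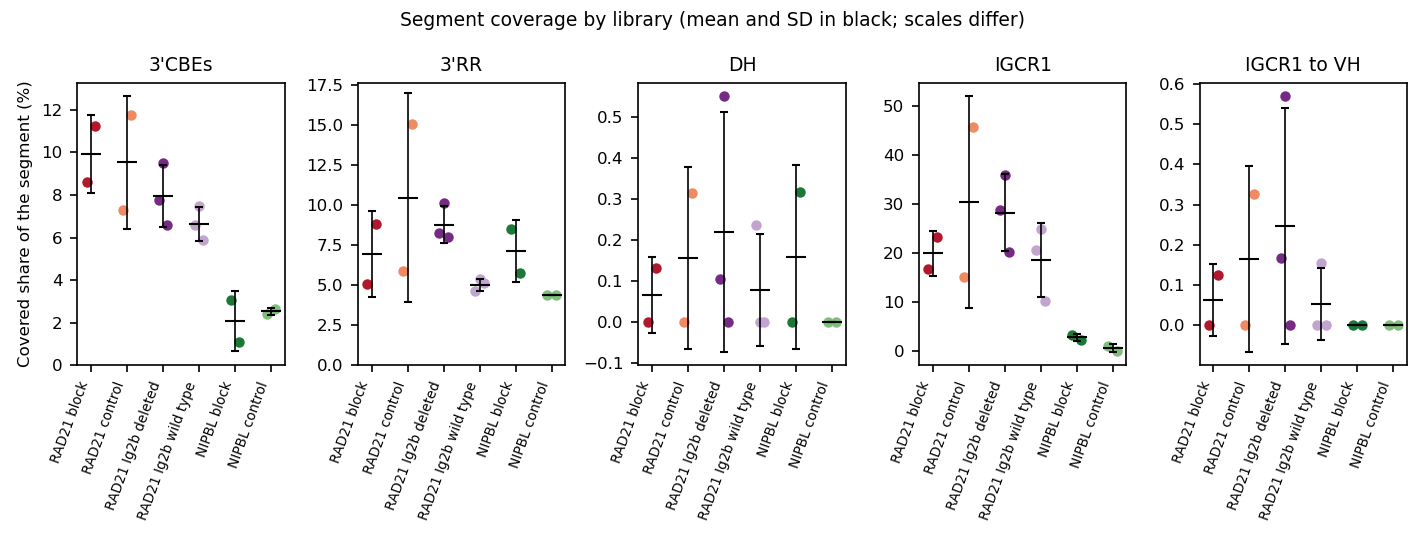
Share of each segment covered by peaks (percent, own scale in each panel) for every library of the 6 groups, with the group mean and SD in black. In IGCR1 the RAD21 libraries lie between 10.3 and 45.7% and the NIPBL libraries between 0 and 3.31%, whereas in the 3'RR the NIPBL libraries lie within the range of the RAD21 libraries or just below it.

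Finally, 28 member peaks lay in no recurrent site. Of the 147 RAD21 peaks 11 did (51 to 265 bp, percentiles of 4.50 to 34.4, median 16.3), and of the 57 NIPBL peaks 17 did (51 to 309 bp, percentiles of 18.5 to 81.4, median 46.7). All 17 such NIPBL peaks lay in the 3' window, against 5 of the 11 RAD21 peaks. Hence no NIPBL peak of the DH to VH window fell outside the numbered sites, and NIPBL control replicate 2 had no peak in that window.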

How the data were processed

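RAD21 and NIPBL ChIP-seq peak lists of 14 libraries were used, and the 4 inputs were not analysed here. The submitters' processing notes name the build mm9, Bowtie2 2.2.8, SAMtools 1.8 and MACS2, and the version of MACS2 is not given in the sources used here. Each library has its own list of called peaks. The fold of a peak is the authors' enrichment ratio and served only to rank peaks within a list. The authors' lists also give −log10 p and −log10 q, and a score that is 10 times −log10 q, which was not used. Per the peak names, the Ig2b lists had duplicates removed and named no control library, and the others named one.

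Peaks on 19 autosomes and X were kept. Overlapping peaks of a library were merged and the bp they cover in a site were counted. Tests used limma 3.58.1 in R 4.3.3 (two-sided, Benjamini-Hochberg over all sites tested, adjusted p under 0.05) on log2(covered bp + 100) at sites with a mean of at least 50 bp, with block or control state as a covariate for RAD21 against NIPBL, and exact two-sided permutation tests over libraries for segments, adjusted over 5 segments. Presence calls ask for at least 1 bp of a peak in each library of a group and in no library of the group it is set against. The limma step was run on simulated data with known changes and independent normal noise, without differences shared by replicate number. A minimum share of recovered changes was required only for RAD21 against NIPBL and for the deletion. It was not required for the block comparisons of 2 libraries against 2. Sites, 32-base words and CTCF matrix matches were read from NCBIM37 with GENCODE vM1, and DH symbols from RefSeq, with Python 3.11.15, numpy 2.4.6, pandas 2.3.3 and pysam 0.24.0. The matrix was refined over 5 rounds on best hits scoring over 8. A site was described in full when at least 7 of 14 lists, or a comparison, called it.

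The labels do not say that replicates came from separate cultures, so p-values measure the spread between these samples. The members, lists and tests were chosen with earlier results of these data known. Alternatives were the replicate block, 500 bp added, no filter, −log10 q of at least 3, lists matched in length, quantile normalization, sites of at least 2 or 5 lists, tiles of 1 kb, 50% overlap, coverage relative to the genome, segment ends moved by 3 kb, all 10 RAD21 libraries, and leaving out each library.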

Additional observations from a re-analysis of the deposited data

How the results depend on the processing

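Read depth was unknown, so the lists limit what can be seen: a site with no peak may hold signal under the authors' threshold. The differences at sites 1, 3, 4, 5, 6, 15 and 16 between RAD21 and NIPBL kept their direction and their call in 18 of 18 alternatives, site 2 in 16 and site 7 in 12. All alternatives drew on the same peak lists that built the sites. The cause of the changes below was not tested. With −log10 q of at least 3, 10 sites recurred, 32032 sites of the genome differed between RAD21 and NIPBL, site 8 turned to 0.68, 1243 sites of the genome and 1 of the windows differed between NIPBL block and control, 891 sites differed between Ig2b deleted and wild type, presence gave 5 RAD21 sites and 1 NIPBL block site, RAD21 DH coverage turned to 0.0656 points, and NIPBL 3'CBEs coverage to 0.628, block minus control. NIPBL block calls were 1245 with lists matched in length, 3838 genome-wide and 1 in the windows with sites of at least 2 lists, and 605 with sites of at least 5 lists. Deletion calls were 115 without a filter and 0 with 500 bp added, quantile normalization, sites of at least 2 lists or tiles of 1 kb. With 50% overlap, presence gave 7 RAD21 sites and 1 NIPBL block site. With lists matched in length, DH coverage turned to −0.0198 points (RAD21 minus NIPBL) and 0.0125 (RAD21 block minus control). With segment ends moved by 3 kb, which takes in neighbouring sites, RAD21 minus NIPBL was 9.97 points in the 3'CBEs, 6.80 in the 3'RR, 14.7 in IGCR1 and 0.629 in IGCR1 to VH (exact permutation adjusted p 0.0357 each). The 3'CBEs differences then turned to −0.728 (RAD21 block) and 0.179 (NIPBL block). Relative to the genome, 3'CBEs coverage turned to −1.08 (RAD21 block minus control) and −0.880 (deleted minus wild type). With all 10 RAD21 libraries, RAD21 minus NIPBL was 5.96 points in the 3'CBEs and 22.4 in IGCR1.

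The main fits did not pair libraries by replicate number. Same-numbered deviations correlated at 0.738 in RAD21 block and control (2 pairs), so these libraries shared a difference by replicate number. The correlation was 0.023 in NIPBL, −0.0418 and −0.0699 between the proteins and 0.0174 to 0.125 in the Ig2b experiment. With the replicate block, 0 sites of the genome differed with the deletion, and no member call changed. For RAD21 block and control, sites 7 and 14 then had an unadjusted limma p of 0.0125 and 0.0149 (adjusted p 0.793 for both), with 1127 sites of the genome under 0.05 unadjusted. Leaving out each library in turn gave 1757 to 3560 NIPBL block sites genome-wide and 0 to 2 in the windows, 0 to 1907 deletion sites genome-wide and 0 to 1 in the windows. Presence gave 0 to 2 sites for RAD21 block, 3 to 6 for NIPBL block and 0 to 1 for the deletion. RAD21 minus NIPBL coverage of DH was −0.0354 to 0.111 points. RAD21 block minus control was −1.82 to 2.61 in the 3'CBEs, −8.12 to 1.08 in the 3'RR, −0.249 to 0.0656 in DH, −25.8 to 4.78 in IGCR1 and −0.264 to 0.0629 in IGCR1 to VH, and its positive values in the last 4 came without RAD21 control replicate 2. NIPBL block minus control was −1.43 to 0.552 in the 3'CBEs, and deleted minus wild type was −0.0260 to 0.250 in DH. Of all values recomputed, 591 kept their direction and side of the threshold, or their size within a set margin. A test that stayed uncalled in the same direction was among these. Of the others, 37 moved in size, 18 reversed direction, 13 gained a call and 8 lost one.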
